A study of Mus musculus with 14 samples.

Results

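Wnt ligands, the secreted proteins that modulate them and their cell surface receptors comprise 55 genes here, chosen by gene symbol. The rule uses no measured value, but the family was picked with earlier results of these data known. They are 19 Wnt ligands, 12 secreted inhibitors (Dkk1 to Dkk4, Wif1, Sfrp1, Sfrp2, Sfrp4, Sfrp5, Frzb, Notum and Draxin), 4 R-spondins, 10 Frizzled receptors and 10 other receptors (Ror1, Ror2, Ryk, Lrp5, Lrp6, Lgr4 to Lgr6, Kremen1 and Kremen2). All 55 are among the 21900 protein-coding genes of the RefSeq table, and 40 of them were paired with at least 1 region of changed chromatin accessibility. Over all 21900 protein-coding genes, 5866 had such a region. Those 40 genes account for 76 of the 10679 lines in the 6 lists of regions, and 15 of the 55 had no line.

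Wnt proteins are lipid-modified signals that act mostly on neighbouring cells. With a Frizzled receptor and the co-receptors Lrp5 or Lrp6 they stabilise beta-catenin, and with Frizzled and Ror receptors they also act without it, on cell shape and movement. Dickkopf proteins such as Dkk1 block the co-receptors, while secreted Frizzled-related proteins and Wif1 bind the ligand itself. R-spondins, through Lgr receptors, keep Frizzled proteins on the cell surface. Many Wnt genes start in CpG-rich DNA, and genes of this family are classical targets of Polycomb repressive complex PRC2, whose catalytic subunit Ezh2 methylates histone H3 at lysine 27.

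ATAC-seq, which tags DNA that a transposase can reach, was run on 500 sorted cells per sample from the yolk sac of C57BL/6 mouse embryos at E10.5. The sorted cells, erythro-myeloid progenitors, give rise to early definitive red and myeloid cells. Tie2 KO (5 samples, Ezh2fl/fl; Tie2-CreTg/+) lost Ezh2 through a Cre that works in endothelial cells and therefore in blood cells descending from them. Vav KO (3 samples, Ezh2fl/fl; Vav-CreTg/+) lost it through a Cre of blood cells. Tie2 WT (3 samples, Ezh2fl/fl; Tie2-Cre+/+) is the wild type group of both deposited comparisons with a control, and like the knockouts it carries the floxed alleles. The 3 Vav WT samples (Ezh2fl/fl; Vav-Cre+/+) enter no list, so in Vav KO against Tie2 WT the Cre line and the loss of Ezh2 cannot be told apart. Both knockouts carry a Cre transgene (Tg) and Tie2 WT, written +/+, carries none. Presence of Cre and loss of Ezh2 therefore cannot be told apart in Tie2 KO against Tie2 WT either.

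The lists hold the authors' log2 fold change and adjusted p-value per region, with no value per sample. Depth is therefore unknown, no replicate spread can be given, and the only measure of error is that p-value. A region is called higher or lower by its sign, near a gene when it covers the gene start or lies up to 5 kb upstream, and more cells with an open region cannot be told apart from a region more open in each cell. As a check of the labels, Tek, whose regulatory DNA drives the Tie2-Cre transgene, had a higher region in Tie2 KO against Tie2 WT and against Vav KO (log2 fold changes 2.90 and 2.92 in the authors' deposited table). Vav1 was higher in Vav KO against Tie2 WT (0.81) and lower in Tie2 KO against Vav KO (-0.90) in the authors' deposited table. Ezh2 itself had no line.

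Promoter sequences of 4 members are given as examples, picked by the size or number of their regions, and do not stand for all members. Among members in the RefSeq promoter table, they belong to the ligand, the secreted modulator and the receptor with the largest fold change over a gene start in Tie2 KO against Tie2 WT, and to Wnt11, which had the most regions over the lists. Each runs 5′ to 3′ on the strand of the gene, from 250 bases before to 50 bases after the start, in RefSeq build GRCm38.p6, the assembly of mm10, with each CpG in capitals. They lie at chr11:59290702-59291001 on the minus strand (Wnt3a), chr3:132085042-132085341 on the plus strand (Dkk2), chr13:53286075-53286374 on the minus strand (Ror2) and chr7:98834862-98835161 on the plus strand (Wnt11).
Wnt3a: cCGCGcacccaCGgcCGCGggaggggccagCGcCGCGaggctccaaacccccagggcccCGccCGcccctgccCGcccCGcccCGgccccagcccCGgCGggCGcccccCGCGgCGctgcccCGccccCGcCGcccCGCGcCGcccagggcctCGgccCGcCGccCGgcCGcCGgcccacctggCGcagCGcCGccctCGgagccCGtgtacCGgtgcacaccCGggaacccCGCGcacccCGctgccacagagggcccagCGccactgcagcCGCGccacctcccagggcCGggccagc
Dkk2: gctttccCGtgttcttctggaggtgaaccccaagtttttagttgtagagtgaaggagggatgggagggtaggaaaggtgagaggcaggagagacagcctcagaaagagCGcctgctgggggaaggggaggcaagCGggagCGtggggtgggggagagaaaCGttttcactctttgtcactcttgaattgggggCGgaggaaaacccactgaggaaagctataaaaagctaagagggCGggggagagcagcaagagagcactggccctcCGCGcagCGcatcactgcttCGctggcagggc
Ror2: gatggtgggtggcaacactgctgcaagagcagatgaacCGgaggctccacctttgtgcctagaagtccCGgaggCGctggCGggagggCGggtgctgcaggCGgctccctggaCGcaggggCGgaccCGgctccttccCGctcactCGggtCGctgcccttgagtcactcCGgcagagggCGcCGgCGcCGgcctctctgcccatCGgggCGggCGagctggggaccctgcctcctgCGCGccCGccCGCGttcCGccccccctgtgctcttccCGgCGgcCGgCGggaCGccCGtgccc
Wnt11: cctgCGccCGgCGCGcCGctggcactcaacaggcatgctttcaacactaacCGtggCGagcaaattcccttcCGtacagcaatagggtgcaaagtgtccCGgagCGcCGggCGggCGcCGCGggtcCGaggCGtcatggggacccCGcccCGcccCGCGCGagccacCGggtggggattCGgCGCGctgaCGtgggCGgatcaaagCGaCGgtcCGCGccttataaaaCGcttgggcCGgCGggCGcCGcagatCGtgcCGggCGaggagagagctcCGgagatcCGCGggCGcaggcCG

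All 300 bases of each window lay inside a higher region of Tie2 KO against Tie2 WT. The windows of Wnt3a and Wnt11 held 45 CpG dinucleotides each, that of Ror2 held 32 and that of Dkk2 held 11, against a median of 7 over all 32851 windows of the table. More CpG than in 98.1% of windows was thus found at Wnt3a and Wnt11, more than in 90.5% at Ror2 and more than in 58.6% at Dkk2, so the last of these is near the middle of all promoters. The 32851 windows belong to 27025 genes, more than the 21900 protein-coding ones, so other types of gene are among them. The core motif of the TCF/LEF factors, which carry the Wnt signal to DNA, was searched on both strands as ATCAAAG. It was found in 1 of the 4 windows, that of Wnt11, at position -51 from the gene start, and 3.73% of all windows hold it. The E-box CANNTG, which reads the same way on both strands, occurred once each in the windows of Wnt3a and Ror2 and in 72.3% of all windows. The promoter table holds 36 of the 55 members (65.5%), so base composition was not compared over the whole family.

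DNA at the starts of many of these genes was more accessible in Tie2 KO than in wild type cells. Of the 55 members, 34 had a higher region in Tie2 KO against Tie2 WT (61.8%, against 11.5% of all protein-coding genes) and 0 had a lower one (against 2.51%). The sources used here do not give which regions the authors tested, so these shares are over all genes and carry no test. By role, 15 of 19 ligands, 9 of 12 secreted inhibitors, 3 of 4 R-spondins, 3 of 10 Frizzled receptors and 4 of 10 other receptors lay near a higher region. The genes of secreted proteins, ligands and R-spondins as well as those grouped here as inhibitors, were thus listed at 75% or more. The receptors stood at 30% and 40%. The start of the gene was itself covered at 29 members (52.7%, against 7.1% of all protein-coding genes). With an absolute log2 fold change of at least 1 the count was 15 (27.3%, against 6.21%), and among regions of the smallest width, 999 bp, it was 3 (5.45%, against 2.61%). On the base of genes with a region in any list, which is itself set by the results, it was 34 of 40 members (85%, against 43.1% of 5866 genes).

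**Figure D1:**
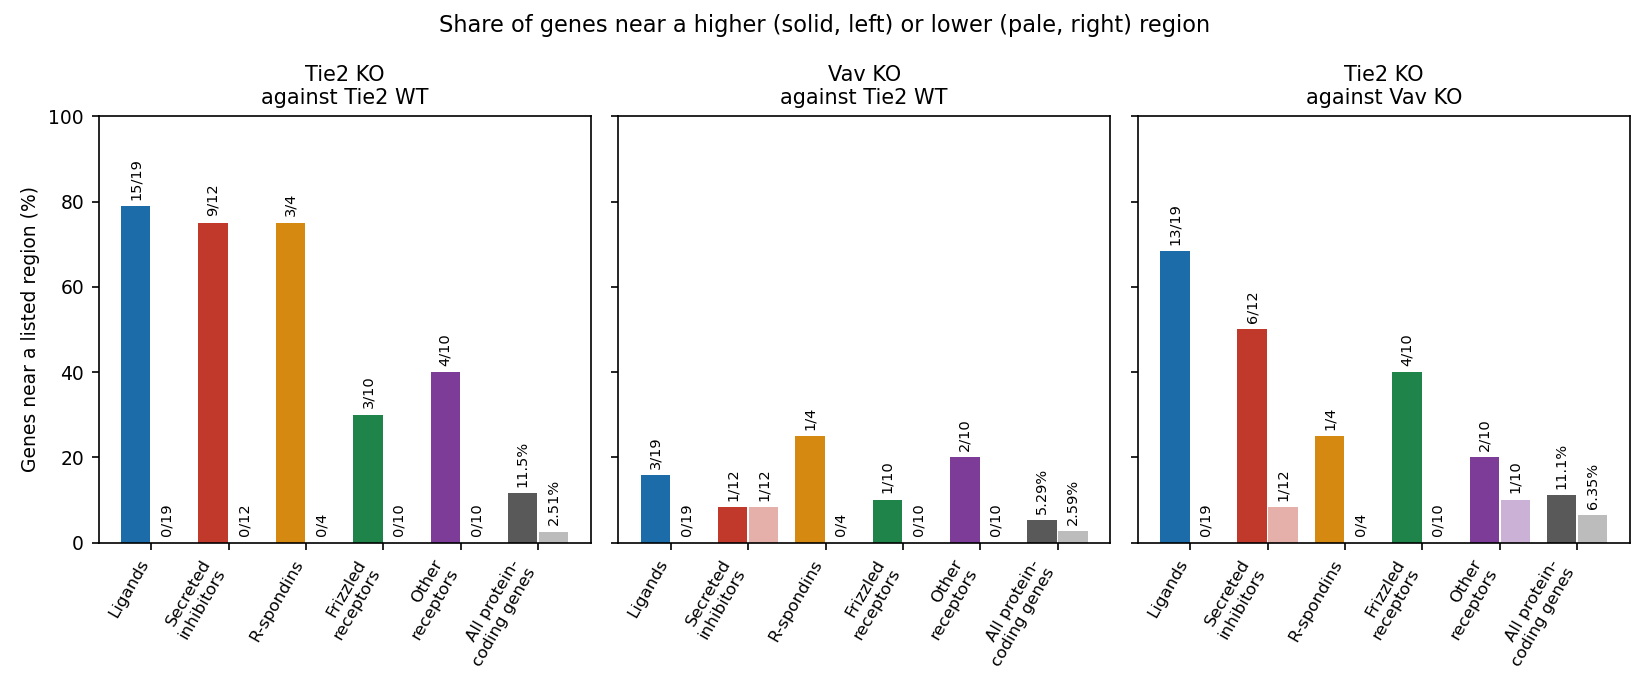
Share of the genes of each role (vertical axis, %) near a higher region (solid bars) or a lower region (pale bars) in each comparison, with the count of genes over the bars and all protein-coding genes in grey. In Tie2 KO against Tie2 WT the ligands reach 15 of 19, while in Vav KO against Tie2 WT they reach 3 of 19.

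Among the ligands the largest change was at Wnt3a, a beta-catenin ligand of the early embryo that is needed to form somites. Its region at chr11:59290302-59292000 covered the gene start and was 2.66-fold higher, or 1.41 on the log2 scale, in the authors' deposited table (adjusted p = 3.53e-06). Wnt10a, a ligand of tooth and hair development, followed at chr1:74790902-74792400 with a log2 fold change (given for each gene from here on) of 1.34, listed in the authors' deposited table (adjusted p = 0.000368). Wnt9b, which induces kidney tubules, had 1.32 at chr11:103748502-103750800 in the authors' deposited table (adjusted p = 4.34e-06). Wnt7a, which patterns the dorsal limb, had 1.3 at chr6:91410402-91412400 in the authors' deposited table (adjusted p = 2.96e-06). All 4 regions covered the start of their gene, and none was shared with another gene.

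Against all higher regions these changes were above the middle but not at the top. Of all 2959 higher regions in Tie2 KO against Tie2 WT, 82.2% had a smaller fold change than Wnt3a, 78.1% than Wnt10a, 77.1% than Wnt9b and 75.5% than Wnt7a. The median log2 fold change was 0.95 over the 37 regions of members and 1.02 over all 2959 higher regions in the authors' deposited table. The members' regions were of a median width of 1899 bp and 78.4% of them covered the start of the member, against 1599 bp and 55.6% covering any gene start over all the higher regions. At the low end was Wnt2b at 0.62, larger than only 2.5% of regions though its adjusted p was 5.53e-08 in the authors' deposited table.

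The other listed ligands ranged between those values. Wnt10b had 1.27, Wnt4 had 1.07, and Wnt5b and Wnt9a had 1.06 each in the authors' deposited table. Wnt16, which in zebrafish is needed for blood stem cells to form, had 0.96 at chr6:22287602-22289200, covering its start, in the authors' deposited table (adjusted p = 5.43e-08). Wnt6 had 0.94, Wnt3 had 0.81 and Wnt7b had 0.75 in the authors' deposited table. For Wnt3, Wnt7b and Wnt10b the region did not reach the gene start but ended 374, 1580 and 1251 bp upstream of it.

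Wnt5a and Wnt11, ligands that act largely without beta-catenin, each had 2 higher regions. At Wnt5a, chr14:28505402-28507100 covered the start with 0.95 (adjusted p = 3.17e-06) and chr14:28504102-28505200 upstream had 0.74 (adjusted p = 0.000535) in the authors' deposited table. At Wnt11, chr7:98833502-98837000 covered the start with 0.91 (adjusted p = 8.02e-08) and chr7:98831802-98833300 had 0.83 (adjusted p = 7.78e-05) in the authors' deposited table. Neighbouring regions of 1 gene are not independent of each other, and each of these genes counts once above.

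**Figure D2:**
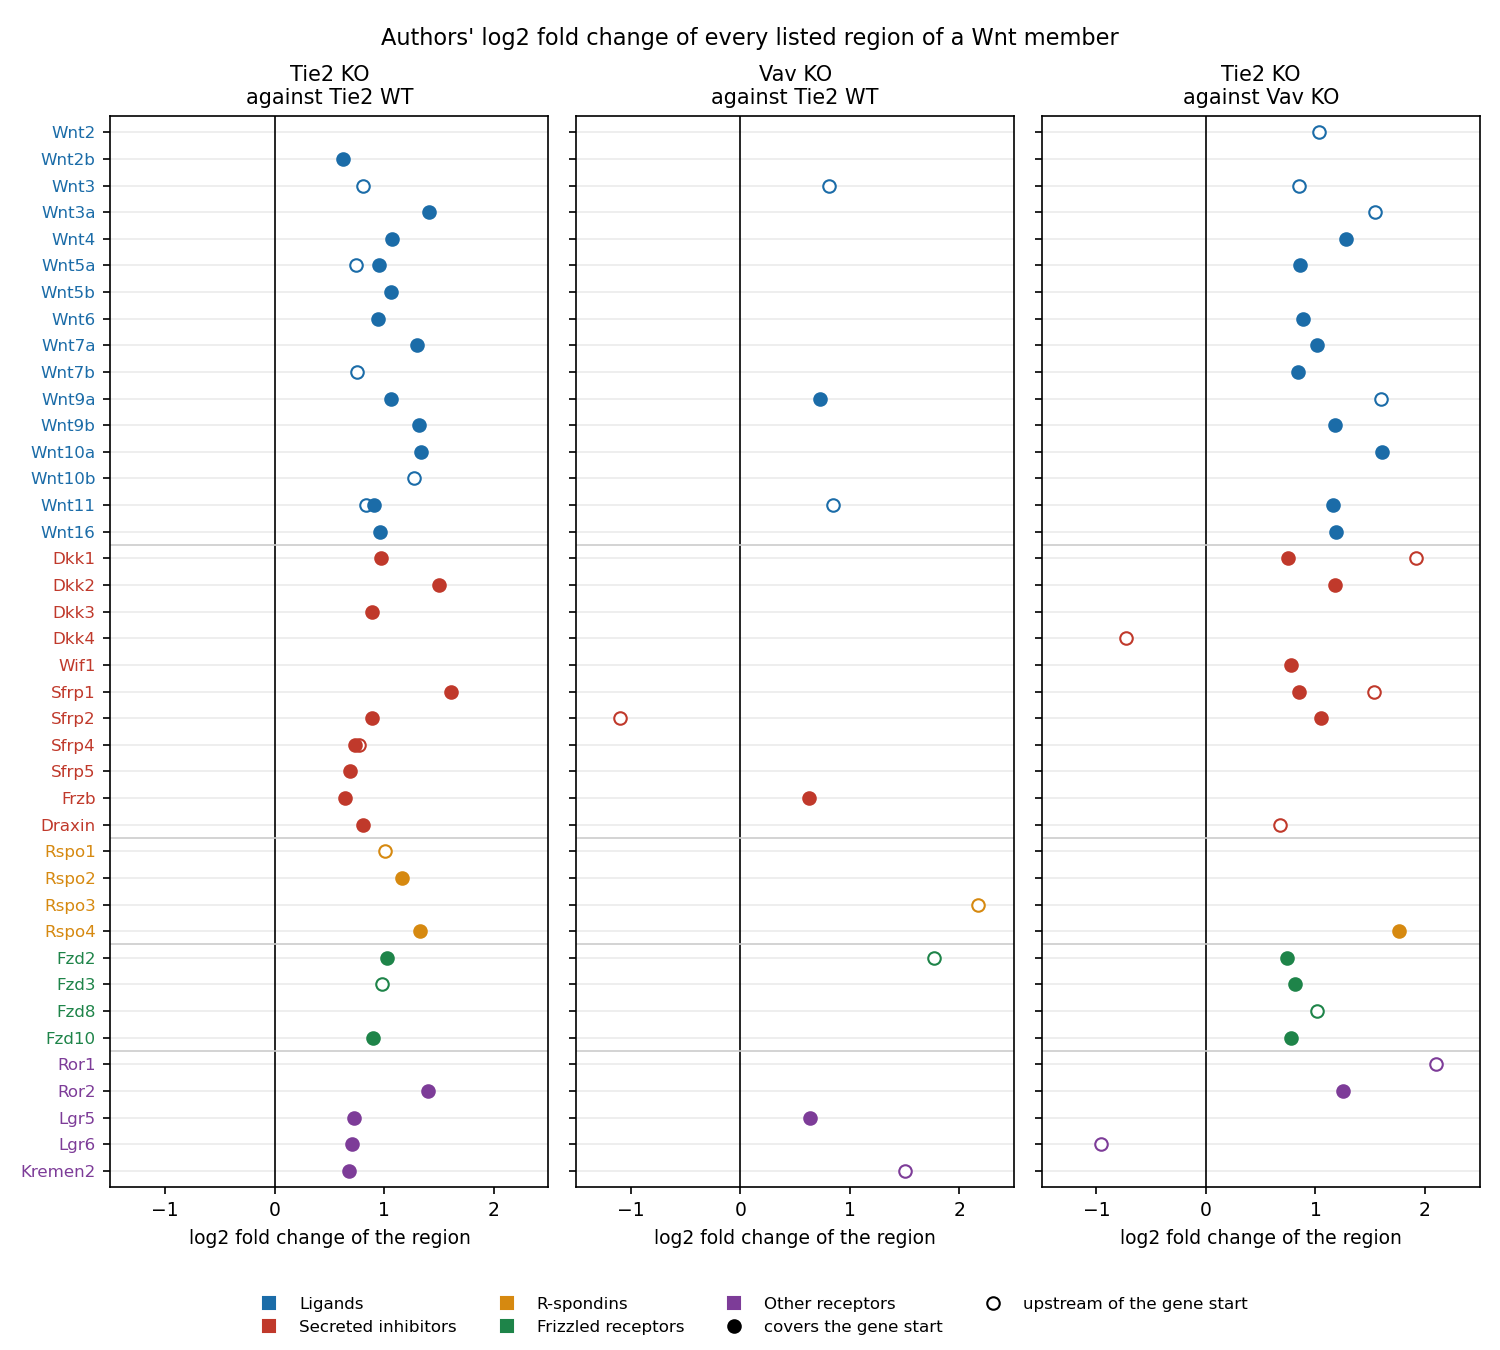
Authors' log2 fold change (horizontal axis) of each region listed for a member (rows, coloured by role), with filled circles where the region covers the gene start and open circles where it lies upstream. All 37 points of Tie2 KO against Tie2 WT lie right of 0, from 0.62 at Wnt2b to 1.61 at Sfrp1.

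Secreted inhibitors held the largest change of the family in Tie2 KO against Tie2 WT. Sfrp1, which binds Wnt ligands, had 1.61 over a region of 4099 bp at chr8:23409202-23413300 in the authors' deposited table, or 3.05-fold (adjusted p = 3.71e-07), and 91% of all higher regions had a smaller fold change. Dkk2, a Dickkopf protein, had 1.5 at chr3:132084402-132085600 in the authors' deposited table (adjusted p = 0.000336). Dkk1, which blocks the co-receptors, had 0.97, and Dkk3 and Sfrp2 had 0.89 each in the authors' deposited table. Draxin, a guidance protein for axons that also binds the co-receptor, had 0.81, Sfrp5 had 0.69 and Frzb had 0.64 in the authors' deposited table. Sfrp4 had 2 regions, with 0.77 upstream at chr13:19619502-19620700 (adjusted p = 0.00014) and 0.73 over the start at chr13:19622102-19623700 (adjusted p = 0.000616) in the authors' deposited table. Both Sfrp4 regions were also paired with Epdr1, and the Draxin region with Mad2l2, so they cannot be given to 1 gene. All 9 inhibitor genes had a region over their start.

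R-spondins, which raise the response to Wnt, changed alongside the inhibitors. Rspo4 had 1.33 at chr2:151841802-151843900 in the authors' deposited table (adjusted p = 6.03e-08). Rspo2, needed for limb and lung development, had 1.16 at chr15:43169602-43171700 in the authors' deposited table (adjusted p = 1.35e-07). Rspo1 had 1.01 in a region that ended 129 bp upstream of the start in the authors' deposited table (adjusted p = 4.94e-05). Rspo3 was not listed in this comparison.

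Among receptors the largest change was at Ror2, a receptor tyrosine kinase for Wnt5a. Its region at chr13:53284302-53286600 had 1.40 in the authors' deposited table, or 2.64-fold (adjusted p = 1.15e-06). Fzd2 had 1.03 at chr11:102603202-102606300 (adjusted p = 3.48e-07), Fzd3 had 0.98 at chr14:65262602-65263800 (adjusted p = 9.12e-06) and Fzd10 had 0.90 at chr5:128598002-128603600 (adjusted p = 1.53e-06) in the authors' deposited table. The Fzd3 region was also paired with Fbxo16 and the Fzd10 region with 5930412G12Rik. The R-spondin receptors Lgr5, a marker of gut stem cells, and Lgr6 had 0.72 and 0.71 in the authors' deposited table. Kremen2, a receptor for Dickkopf proteins, had 0.68 in a region also paired with Paqr4 in the authors' deposited table. The co-receptors Lrp5 and Lrp6 and the remaining Frizzled genes were not listed.

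**Figure D3:**
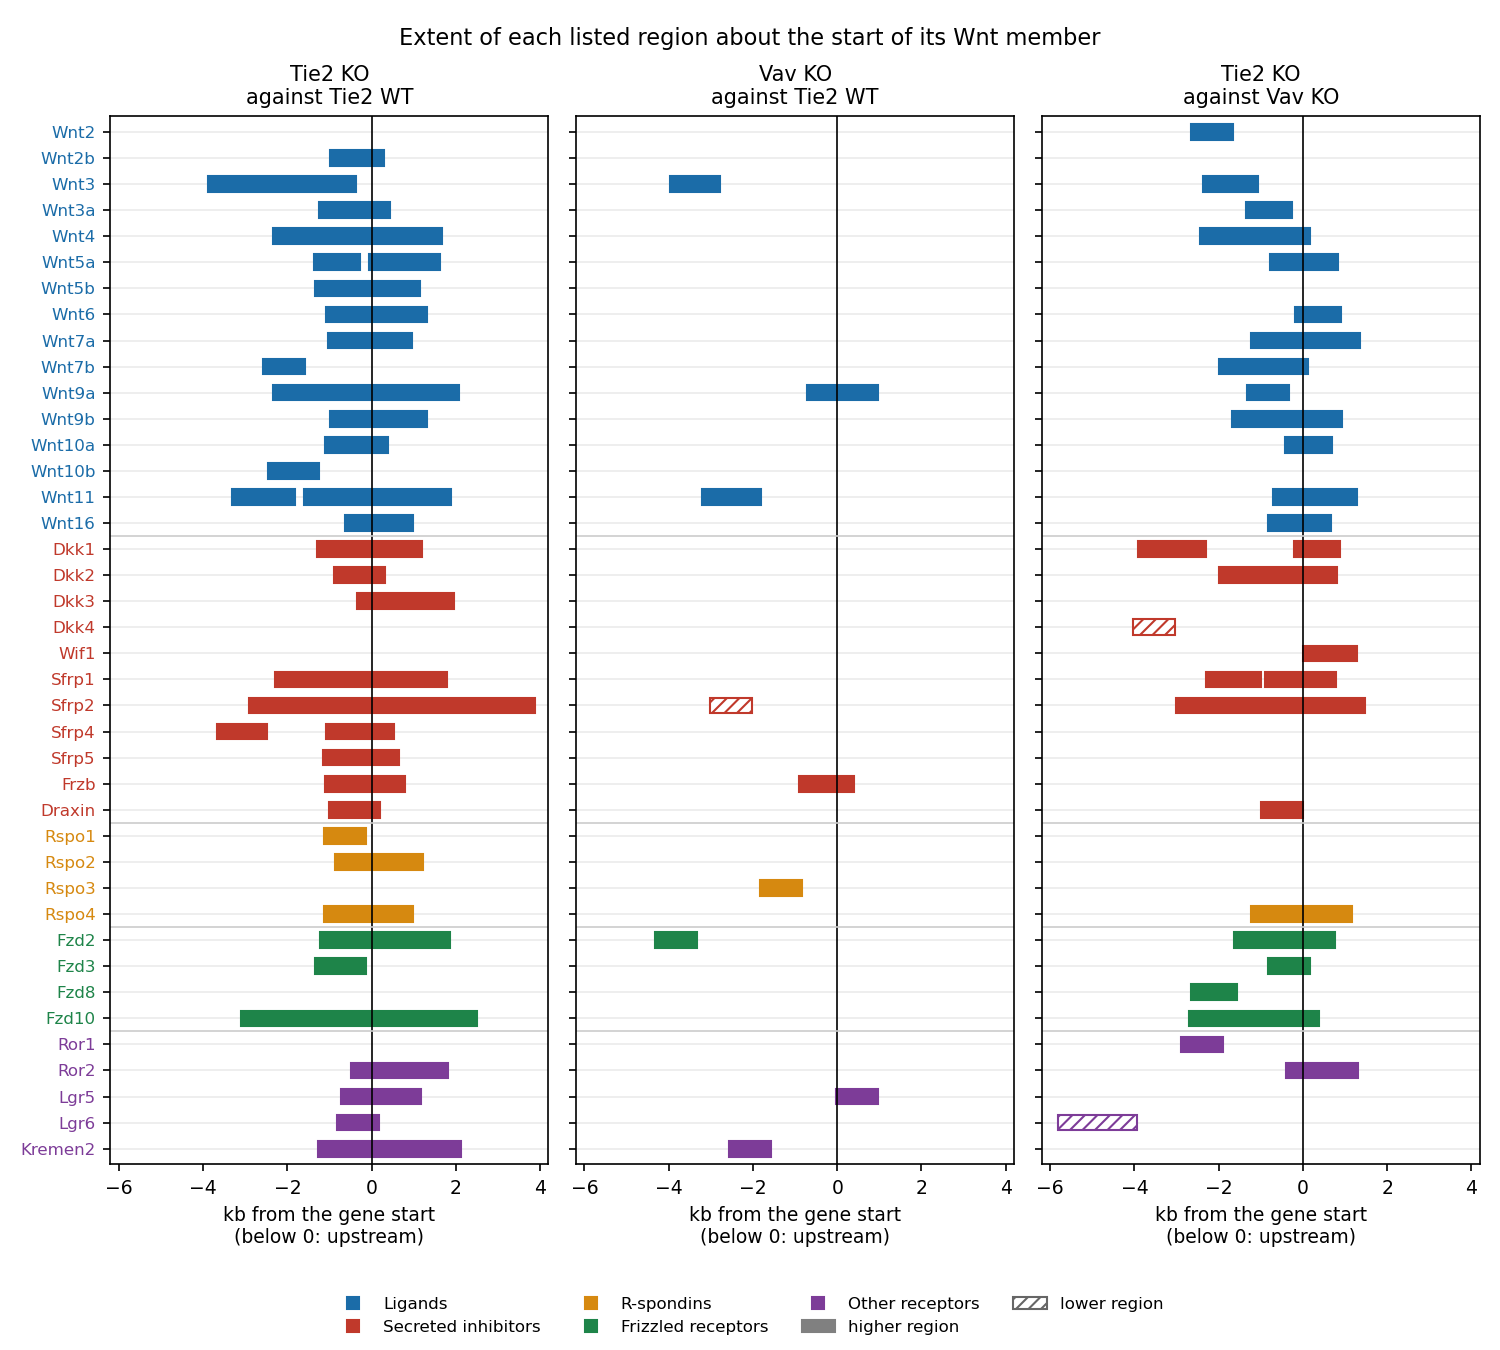
Extent of each listed region in kb from the start of its member (horizontal axis, values below 0 upstream), with filled bars for higher and hatched bars for lower regions. In Tie2 KO against Tie2 WT most bars cross 0, the widest being that of Sfrp2 at 6799 bp, and the 3 hatched bars of the other comparisons lie upstream.

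Several Wnt genes lie side by side, a remnant of old duplications, and the regions at neighbours were separate. Wnt3a and Wnt9a on chromosome 11 point away from each other with 16.2 kb between their starts, and had 1.41 and 1.06 in Tie2 KO against Tie2 WT in the authors' deposited table. Wnt9b and Wnt3, on the same chromosome and also pointing apart, have 24.4 kb between their starts and had 1.32 and 0.81 in the authors' deposited table. Wnt6 and Wnt10a on chromosome 1 point the same way with starts 20.1 kb apart, and had 0.94 and 1.34 in the authors' deposited table. Wnt10b and Wnt1 on chromosome 15 have 11.7 kb between the genes. There Wnt10b had 1.27 in the authors' deposited table, and Wnt1 had no line.

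**Figure D4:**
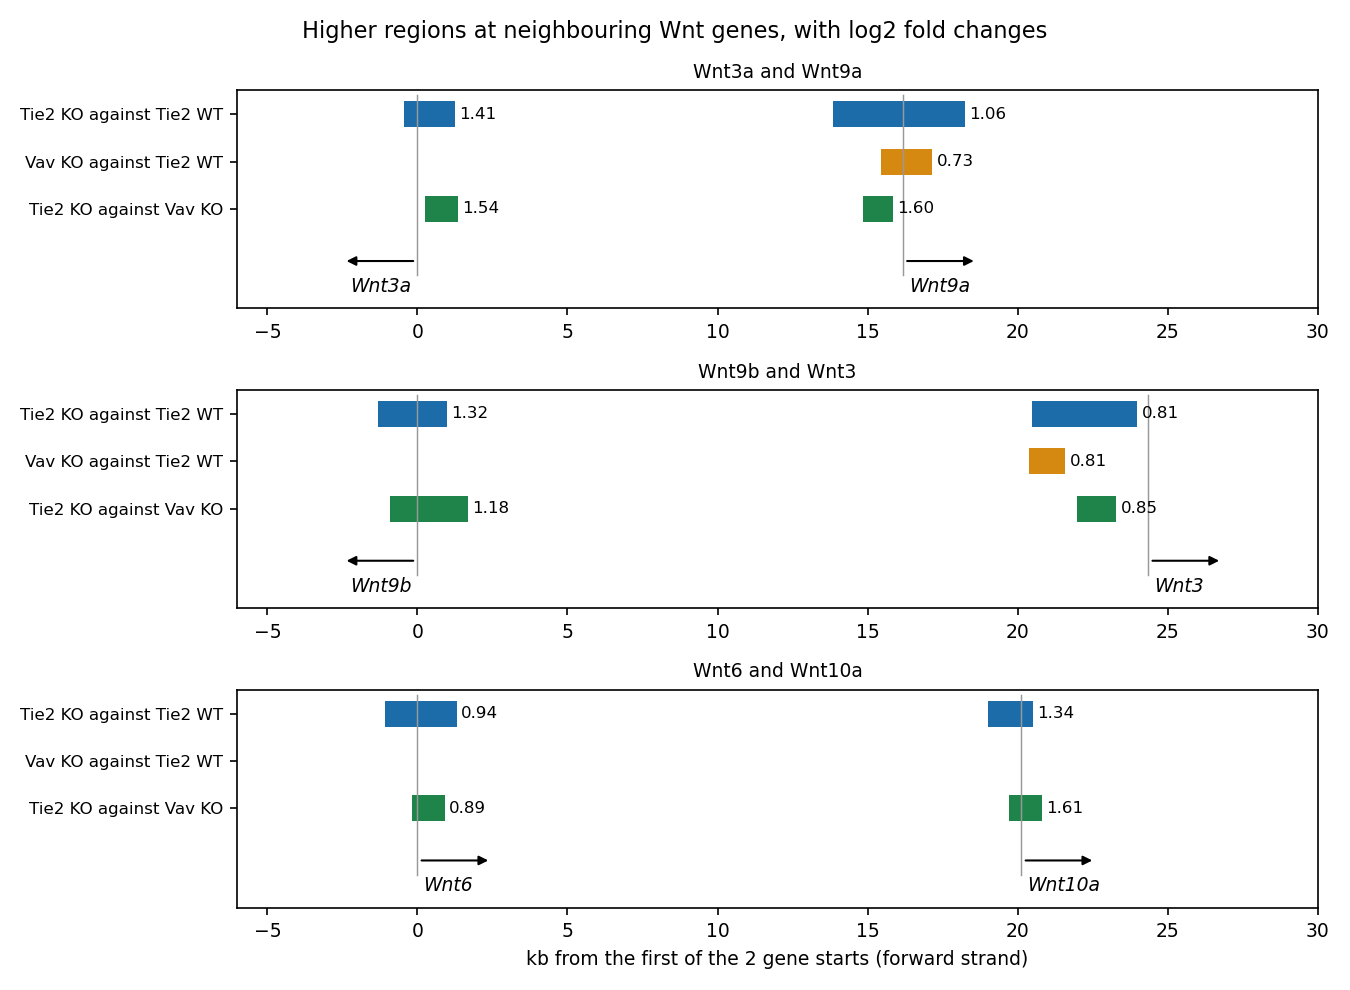
Regions at 3 pairs of neighbouring Wnt genes (horizontal axis, kb from the first gene start on the forward strand; arrows, direction of the genes; bars, higher regions with their log2 fold change, 1 row for each comparison). Each gene of a pair has its own region in Tie2 KO against Tie2 WT, and Vav KO against Tie2 WT has a region at Wnt9a and at Wnt3 only.

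Fewer members were listed for the knockout made with Vav-Cre. Vav KO holds 3 samples and Tie2 KO holds 5, so the lists may differ in how many changes they could call, which was not tested. In Vav KO against Tie2 WT, 8 of the 55 had a higher region (14.5%, against 5.29% of all protein-coding genes) and 1 had a lower one (1.82%, against 2.59%). The higher ones were 3 of 19 ligands (Wnt3, Wnt9a and Wnt11), 1 of 12 inhibitors (Frzb), 1 of 4 R-spondins (Rspo3), 1 of 10 Frizzled receptors (Fzd2) and 2 of 10 other receptors (Lgr5 and Kremen2). Gene starts were covered at 3 of them, Wnt9a, Frzb and Lgr5 (5.45%, against 0.881% of all protein-coding genes). Within 1 kb of the start the higher count was 4 (7.27%, against 2.25%), and with an absolute log2 fold change of at least 1 it was 3 (5.45%, against 3.79%). On the base of genes with a region in any list it was 8 of 40 members (20%, against 19.8% of 5866 genes), so on that base the members stood at the background.

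The largest changes were at modulators and receptors, in regions of 999 bp upstream of the start. Rspo3, an R-spondin needed for vessels of the placenta, had 2.17 at chr10:29536702-29537700 in the authors' deposited table, or 4.50-fold (adjusted p = 0.00014). Fzd2 had 1.77 at chr11:102600102-102601100, 3330 bp upstream, in the authors' deposited table (adjusted p = 7.82e-06). Kremen2 had 1.5 at chr17:23747402-23748400 in the authors' deposited table (adjusted p = 0.00109). None of these 3 regions overlapped a region of the same gene in Tie2 KO against Tie2 WT: for Rspo3 there was none, for Fzd2 the gap was 2101 bp and for Kremen2 it was 301 bp.

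The ligands changed less than Rspo3, Fzd2 and Kremen2, but more than the receptor Lgr5 and the inhibitor Frzb. Wnt11 had 0.85 at chr7:98831902-98833300, upstream, in the authors' deposited table (adjusted p = 0.000499). Wnt3 had 0.81 at chr11:103770202-103771400, also upstream, in the authors' deposited table (adjusted p = 0.000215). Wnt9a had 0.73 over its start at chr11:59306202-59307900 in the authors' deposited table (adjusted p = 2.72e-05). Lgr5 had 0.64 at chr10:115586802-115587800 (adjusted p = 0.00135) and Frzb had 0.63 at chr2:80447002-80448300 (adjusted p = 3.73e-06) in the authors' deposited table. The median over the 8 regions was 0.83, against 1.35 over all 1313 higher regions of this comparison, in the authors' deposited table.

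The one lower region lay at Sfrp2, an inhibitor that binds Wnt ligands. It had -1.10 at chr3:83763302-83764300, 2020 bp upstream of the start, in the authors' deposited table (adjusted p = 3.96e-05). A count of 1 gene is close to the background.

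The knockouts were also compared directly. In Tie2 KO against Vav KO, 26 of the 55 members had a higher region (47.3%, against 11.1% of all protein-coding genes) and 2 had a lower one (3.64%, against 6.35%). The higher ones were 13 of 19 ligands, 6 of 12 inhibitors, 1 of 4 R-spondins, 4 of 10 Frizzled receptors and 2 of 10 other receptors. At 19 members the gene start was covered (34.5%, against 5.42% of all protein-coding genes). With an absolute log2 fold change of at least 1 the higher count was 17 (30.9%, against 7.23%), and among regions of the smallest width it was 5 (9.09%, against 3.35%). On the base of genes with a region in any list it was 26 of 40 members (65%, against 41.3% of 5866 genes). The Tie2 KO samples are those already compared with Tie2 WT, so these lists share samples and one does not repeat the other.

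The largest change was at Ror1, a receptor tyrosine kinase related to Ror2, with 2.1 at chr4:100092902-100093900 in the authors' deposited table, or 4.29-fold (adjusted p = 0.000582). That region lay 1890 bp upstream, and Ror1 was not listed in the other comparisons. Ror2 had 1.25 at chr13:53284802-53286500 (adjusted p = 3.19e-06) in the authors' deposited table. Fzd8 had 1.01 at chr18:9210202-9211300 (adjusted p = 0.000101) and Fzd3 had 0.81 at chr14:65262302-65263300 (adjusted p = 0.000947) in the authors' deposited table. Fzd10 had 0.78 and Fzd2 had 0.74 in the authors' deposited table.

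Inhibitors and R-spondins followed. Dkk1 had 2 regions, with 1.92 upstream at chr19:30551802-30553400 (adjusted p = 4.61e-06) and 0.75 over the start at chr19:30548602-30549700 (adjusted p = 0.00106) in the authors' deposited table. The upstream region began 1001 bp beyond the only Dkk1 region of Tie2 KO against Tie2 WT. Rspo4 had 1.76 at chr2:151841702-151844100 in the authors' deposited table (adjusted p = 5.75e-07). Sfrp1 also had 2 regions, 1.53 at chr8:23409202-23410500 (adjusted p = 0.00112) and 0.85 at chr8:23410602-23412300 (adjusted p = 0.00438) in the authors' deposited table. Dkk2 had 1.18 at chr3:132083302-132086100 (adjusted p = 8.86e-06) and Sfrp2 had 1.05 at chr3:83763302-83767800 (adjusted p = 1.81e-06) in the authors' deposited table. Wif1 had 0.78 and Draxin had 0.68 in the authors' deposited table.

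Of the ligands, Wnt10a had 1.61 at chr1:74791602-74792700 (adjusted p = 0.000111) and Wnt9a had 1.60 at chr11:59305602-59306600 (adjusted p = 0.000798) in the authors' deposited table. Wnt3a had 1.54 at chr11:59291002-59292100 (adjusted p = 5.89e-05) and Wnt4, a ligand of kidney and ovary development, had 1.28 at chr4:137275202-137277800 (adjusted p = 5.49e-06) in the authors' deposited table. The other 9 ligands had log2 fold changes from 0.84 at Wnt7b to 1.19 at Wnt16 in the authors' deposited table. Wnt2 was listed here alone among the comparisons, with 1.03 in a region 1656 bp upstream in the authors' deposited table (adjusted p = 0.000236). The median over the 28 higher regions of members was 1.04, against 1.16 over all 2873 higher regions, in the authors' deposited table.

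The lower regions lay far upstream of an inhibitor and a receptor. Lgr6 had -0.96 at chr1:135109202-135111100, 3925 bp upstream, in the authors' deposited table (adjusted p = 2.49e-05). Dkk4 had -0.73 at chr8:22620002-22621000, 3042 bp upstream, in the authors' deposited table (adjusted p = 0.000474). Lgr6 had its higher region in Tie2 KO against Tie2 WT over the gene start, 3101 bp away from the lower one, so the opposite signs belong to different DNA.

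**Figure D5:**
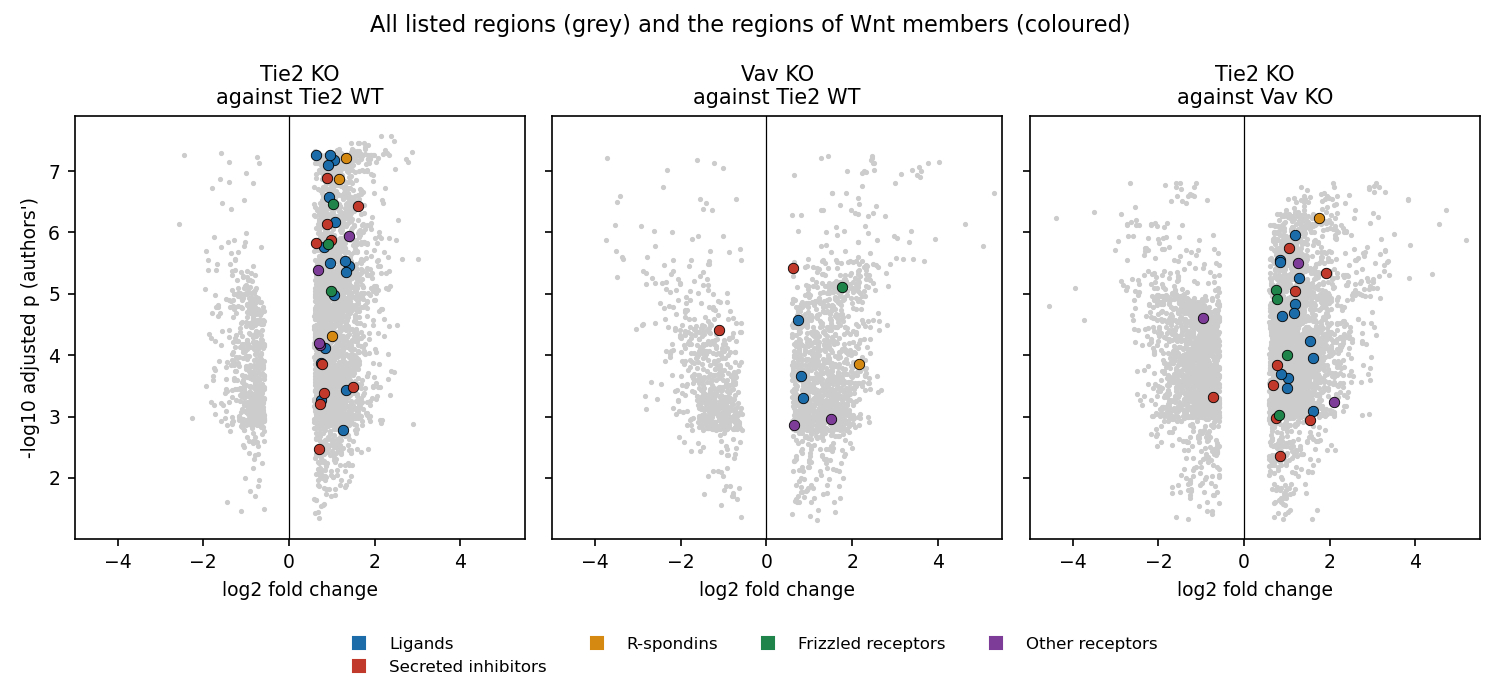
Authors' log2 fold change (horizontal axis) against -log10 of their adjusted p (vertical axis) for each listed region, grey for all genes and coloured by role for members. The members' points lie within the grey cloud, on its right side in Tie2 KO against Tie2 WT, and reach 1.61 there where the cloud reaches 3.0.

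The 5 members Wnt3, Wnt9a, Wnt11, Sfrp2 and Fzd2 had a region in all comparisons, and their values are set side by side because the lists share samples. Sfrp2 had 0.89 in Tie2 KO against Tie2 WT, -1.10 in Vav KO against Tie2 WT and 1.05 in Tie2 KO against Vav KO in the authors' deposited table. The lower region of Sfrp2 in Vav KO was 999 bp wide, of which 899 bp lay at the upstream end of the 6799 bp region higher in Tie2 KO. Wnt9a had 1.06, 0.73 and 1.60 in the same order of comparisons in the authors' deposited table. At Wnt11 the upstream region had 0.83 in Tie2 KO against Tie2 WT and 0.85 in Vav KO against Tie2 WT in the authors' deposited table, and 1399 bp were common to both. The region over the Wnt11 start had 0.91 in Tie2 KO against Tie2 WT and 1.16 in Tie2 KO against Vav KO in the authors' deposited table, and no region over that start was listed for Vav KO against Tie2 WT.

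At Wnt3 the values were 0.81, 0.81 and 0.85 in the authors' deposited table, but the region of Tie2 KO against Vav KO lay 401 bp away from that of Vav KO against Tie2 WT. Fzd2 had 1.03, 1.77 and 0.74 in the authors' deposited table, with the region of Vav KO separate from the others. Frzb had 0.64 in Tie2 KO against Tie2 WT and 0.63 in Vav KO against Tie2 WT, and Lgr5 had 0.72 and 0.64 in the authors' deposited table. Neither was listed in Tie2 KO against Vav KO, which does not show that the knockouts were alike there.

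Members with no line were Wnt1, Wnt8a, Wnt8b, Notum, Fzd1, Fzd4, Fzd5, Fzd6, Fzd7, Fzd9, Ryk, Lrp5, Lrp6, Lgr4 and Kremen1. Receptors made up 11 of these 15, against 3 ligands and 1 inhibitor. Of the 20 receptors 9 had a line, beside 5866 of all 21900 protein-coding genes. The lists hold only regions past the authors' thresholds near gene starts, so a gene with no line may have changed less, or elsewhere, or may not have been tested.

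Among another 79 genes of the Wnt pathway, 14 had a higher region and 3 had a lower region in Tie2 KO against Tie2 WT (17.7% and 3.8%, beside the 11.5% and 2.51% of all protein-coding genes given above). In Vav KO against Tie2 WT the counts were 8 higher (10.1%, against 5.29%) and 5 lower (6.33%, against 2.59%). Tie2 KO against Vav KO had 9 higher (11.4%, against 11.1%) and 6 lower (7.59%, against 6.35%), both near the background. Of the 29 intracellular components, 1 had a higher region (3.45%, against 11.5% of all protein-coding genes) and 2 had a lower region (6.9%, against 2.51%) in Tie2 KO against Tie2 WT. These were Cxxc4, an inhibitor of Dishevelled, at 1.41, and Csnk1g2, a casein kinase, at -0.88, and Ctnnbip1, an inhibitor of beta-catenin, at -1.08, in the authors' deposited table. The lower regions of Csnk1g2 and Ctnnbip1 lay 2579 and 340 bp from the gene start. In Tie2 KO against Vav KO the intracellular components numbered 0 with a higher region (against 11.1%) and 5 with a lower region (17.2%, against 6.35%). The 5 were Chd8, Csnk1e, Csnk1g2, Frat2 and Nkd2, from -0.62 to -2.12 in the authors' deposited table. None of their regions covered the gene start, and they lay from 170 bp (Nkd2) to 4229 bp (Chd8) away from it. Of the 5 genes, only Csnk1g2 was also lower in Tie2 KO against Tie2 WT. Of the 29, 3 were higher (10.3%, against 5.29%) and 2 lower (6.9%, against 2.59%) in Vav KO against Tie2 WT. Those 3 were Chd8 with 2.98, Csnk1g2 with 1.71 and Nkd2 with 1.54, as the authors deposited them, at 4229, 4879 and 170 bp from the gene start. For Chd8 and Nkd2 the region overlapped the one lower in Tie2 KO against Vav KO, and for Csnk1g2 it did not. The 16 nuclear components numbered 3 higher and 1 lower both in Tie2 KO against Tie2 WT and in Tie2 KO against Vav KO (18.8% and 6.25%). All protein-coding genes stood at 11.5% and 2.51% against Tie2 WT and at 11.1% and 6.35% against Vav KO. Each lower count is of 1 gene, close to the background. In Vav KO against Tie2 WT 2 were higher (12.5%, against 5.29%) and 1 lower (6.25%, against 2.59%). Lef1, a DNA-binding factor of the pathway, had 2 higher regions in each comparison of Tie2 KO. The upstream one had 1.64 against Tie2 WT and 2.20 against Vav KO, and the one over the start had 0.97 and 1.04, in the authors' deposited table. The lower genes in the comparisons of Tie2 KO were Tle6, of the Groucho family, and Bcl9l, a partner of beta-catenin. Tle6 had -0.81 against Tie2 WT and Bcl9l had -1.91 against Vav KO in the authors' deposited table, at 1701 and 1512 bp from the gene start. Ctnnb1, Apc, Axin2, Tcf7 and Tcf7l2 had no line in any of the lists.

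Markers of other yolk sac cells moved in the same lists as the Wnt genes. In Tie2 KO against Tie2 WT, 8 of 10 mesenchymal or mesothelial markers were listed as higher (80%, against 11.5% of all protein-coding genes) and 0 as lower (against 2.51%), from 0.70 at Twist1 to 2.15 at Twist2 in the authors' deposited table. Endothelial markers numbered 5 higher and 1 lower of 10 (50% and 10%), yolk sac endoderm markers 3 and 0 of 12 (25% higher), and erythroid markers 0 and 0 of 8. One of the endothelial markers is Tek, whose regulatory DNA also drives the Tie2-Cre transgene, and without it 4 of 9 were higher (44.4%) in each comparison of Tie2 KO, a count added after seeing the data. In Vav KO against Tie2 WT the mesenchymal or mesothelial markers numbered 3 higher and 1 lower (30% and 10%, against 5.29% and 2.59%), the endothelial 0 and 0, the endoderm 0 and 1 and the erythroid 1 and 0. Apart from the mesenchymal or mesothelial ones, these counts are of at most 1 gene a list. In Tie2 KO against Vav KO the mesenchymal or mesothelial markers numbered 5 higher and 0 lower (50% higher, against 11.1%, with 6.35% lower over all genes), the endothelial 5 and 0 (50% higher), the endoderm 4 and 0 (33.3% higher) and the erythroid 0 and 1. Sox17 stands both among the endothelial markers and among the nuclear pathway genes. Of 12 markers of erythro-myeloid progenitors, 0 were higher or lower in Tie2 KO against Tie2 WT (against 11.5% and 2.51%). In Vav KO against Tie2 WT, Csf1r was higher (8.33%, against 5.29%) and Gata2 lower (8.33%, against 2.59%). In Tie2 KO against Vav KO, Gata2 was higher (8.33%, against 11.1%) and Cd34 and Csf1r were lower (16.7%, against 6.35%). These counts are of at most 2 genes a list. The level of each marker in a sample cannot be read from lists of changed regions, so the sorted cell type could not be checked by its markers. The part of other cells in the Wnt results was not tested.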

How the data were processed

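The 14 samples gave ATAC-seq libraries, and 11 of them belong to the groups that the lists name. Programs in the submitters' processing notes are Bowtie2, FastQC, HOMER 4.10, MACS2 2.1.2, Picard and SAMtools 1.3.1, and the build is mm10, without roles. How the Tn5 shift, duplicates, scaling and testing of regions were handled is not stated there. Per the file headers, the authors deposited for each region its log2 fold change, its adjusted p-value and other measures, the width and the distance to a gene start in bp. No region had an absolute log2 fold change under 0.58, an adjusted p over 0.0479, a width under 999 bp or a distance over 4999 bp. Abbreviated list names were read as the groups Tie2 KO, Tie2 WT and Vav KO. Wide regions cover a gene start more easily than narrow ones.

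Lines were chosen by gene symbol, and counted over the protein-coding genes of the RefSeq table (GRCm38.p6). Python 3.11.15, pandas 2.3.3 and numpy 2.4.6 gave counts, medians and overlaps (at least 1 bp), and the counting was tested on simulated data. No test was made, since no sample has a value. Full statistics are given, by comparison and direction, for the 4 ligands, 4 secreted modulators and 4 receptors with the largest absolute fold change, and for members with a lower region or several regions in 1 list. Genes named outside the members were picked with their values known. The members and lists were chosen with earlier results of these data known. Alternatives covered stricter thresholds, distances, shared regions, widths and the gene background.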

Additional observations from a re-analysis of the deposited data

Results flagged for a closer look

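At 2 members the regions of all 3 comparisons overlapped in part. The authors' test of Tie2 KO against Vav KO there bears on a difference between the knockouts at DNA that is only partly shared. At Sfrp2 that difference was 1.05 on the log2 scale in the authors' deposited table (adjusted p = 1.81e-06), with 0.89 in Tie2 KO and -1.10 in Vav KO, each against the same Tie2 WT samples. At Wnt9a it was 1.60 in the authors' deposited table (adjusted p = 0.000798), with 1.06 in Tie2 KO and 0.73 in Vav KO. The 3 values of a gene do not add up, and the regions differ in extent. The cause was not tested. For Wnt9a the 999 bp region of Tie2 KO against Vav KO shares 399 bp with the 1699 bp region of Vav KO against Tie2 WT. For Sfrp2 the region of Tie2 KO against Vav KO is 4499 bp wide and shares 999 bp with that of Vav KO against Tie2 WT. The part of the Cre line in these differences cannot be told apart from that of the knockout.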

How the results depend on the processing

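The 6 counts of members were recomputed under 6 alternatives each. Of the 36 counts, 22 stayed within 1.5 times the reported one and 14 did not. Each alternative only leaves out regions, so the count of 0 lower members in Tie2 KO against Tie2 WT could not change under any of the 6. With an absolute log2 fold change of at least 1 the members near higher regions numbered 15 in Tie2 KO against Tie2 WT, 3 in Vav KO against Tie2 WT and 17 in Tie2 KO against Vav KO, against 6.21%, 3.79% and 7.23% of all protein-coding genes, and those near lower regions in the last comparison numbered 0. With regions of the smallest width they numbered 3, 4 and 5, against 2.61%, 2.34% and 3.35%, and 1 lower, so the share in Tie2 KO against Tie2 WT was 5.45%. This width leaves out most of the wide regions over gene starts. With regions over the gene start, Vav KO against Tie2 WT had 3 higher and 0 lower members, and Tie2 KO against Vav KO had 0 lower. Within 1 kb of the start the same counts were 4, 0 and 0. Regions paired with 1 gene left each count within 1.5 times. An adjusted p under 0.01 could change no count, because no member's region had an adjusted p over 0.00438. Taking the region nearest the start in place of the largest changed 3 of 71 fold changes of a member in a comparison. Most of the 71 rest on a single region and could not change. Several regions were listed only for Wnt5a, Wnt11 and Sfrp4 in Tie2 KO against Tie2 WT and for Dkk1 and Sfrp1 in Tie2 KO against Vav KO. Of these, the values of Sfrp4, Dkk1 and Sfrp1 changed. On the base of the 5866 protein-coding genes with a region in any list, members stood at 85% (against 43.1%) in Tie2 KO against Tie2 WT, 20% (against 19.8%) in Vav KO against Tie2 WT and 65% (against 41.3%) in Tie2 KO against Vav KO. The planned comparison of promoter CpG content was not made, since the promoter table holds 65.5% of members. No paired analysis was possible because the lists hold no value per sample, and no replicate could be left out.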

Other observations

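Genes counted under planar cell polarity, the branch of the pathway that orients cells in a sheet, were listed in the comparisons of Tie2 KO. This set was drawn broadly and takes in the Dact and Daam genes. Of 14 such genes, 5 lay near a higher region in Tie2 KO against Tie2 WT (35.7%, against 11.5% of all protein-coding genes) and 4 in Tie2 KO against Vav KO (28.6%, against 11.1%), with 0 near a lower region in either. In Vav KO against Tie2 WT 0 were listed, where 5.29% of all protein-coding genes were near a higher region, so for 14 genes a count of 0 is near the background. Dact2, which binds Dishevelled, had 1.83 in Tie2 KO against Tie2 WT and 1.29 in Tie2 KO against Vav KO in the authors' deposited table. Daam2, a formin of the pathway, had 1.59 and 1.06, and Celsr3, an atypical cadherin, had 0.98 and 0.80 in the authors' deposited table. Prickle2 had 1.25 in Tie2 KO against Tie2 WT in the authors' deposited table and was not listed in the direct comparison of the knockouts. These lists share the Tie2 KO samples.

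Of 20 other genes of Wnt secretion and the cell surface, 5 had a higher region (25%, against 11.5% of all protein-coding genes) and 0 had a lower region in Tie2 KO against Tie2 WT. In Vav KO against Tie2 WT 3 were higher (15%, against 5.29%) and 2 lower (10%, against 2.59%), and in Tie2 KO against Vav KO 2 were higher (10%, against 11.1%) and 0 lower. Reck, a cofactor of Wnt7 signalling in brain vessels, had 2.00 in Tie2 KO against Tie2 WT and 1.90 in Vav KO against Tie2 WT in the authors' deposited table. Ndp, which encodes Norrin, a ligand of Fzd4 that is no Wnt, had 1.93 in Tie2 KO against Tie2 WT in the authors' deposited table, while Fzd4 itself had no line. Porcn, the enzyme that adds the lipid to Wnt proteins, had 0.63 and 0.59 against Tie2 WT in Tie2 KO and Vav KO in the authors' deposited table. Rnf43, a ubiquitin ligase that removes Frizzled receptors and is held back by R-spondins, had 1.20 in Tie2 KO against Tie2 WT in the authors' deposited table. Ptk7 and Igfbp4 had lower regions in Vav KO against Tie2 WT, at -1.01 and -0.73 in the authors' deposited table.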
